A study of Mus musculus with 4 samples.

Results

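The receptors that bind the constant (Fc) part of IgG were followed in RNA sequencing libraries of activated lung group 2 innate lymphoid cells (ILC2s), together with the signalling chain that several of them share. The 6 genes were Fcgr1, Fcgr2b, Fcgr3, Fcgr4, Fcer1g and Fcgrt, each taken by its symbol from the 22558 genes of the deposited count table. They were selected on their family membership with their counts and fold changes between the genotypes already known, so those differences are described with a standard error and without a test.

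There were 2 WT libraries of C57BL/6 mice and 2 libraries whose labels give the genotype ICAM-1 KO (KO-labelled libraries). The latter came from mice with a constitutive targeted allele (B6.129S4-Icam1tm1Jcgr/J), meant to remove ICAM-1 from every cell and not from ILC2s alone. How far the genetic backgrounds of the WT and KO-labelled mice match was not tested. All mice were 6 weeks old and received 3 intranasal doses of 0.5 µg recombinant mouse IL-33, and no library came from unchallenged mice. Lungs were taken on day 4, and each library came from the pooled lungs of 4 mice, from which CD45+, ST2+, CD127+ cells negative for a lineage cocktail were sorted. The cocktail holds antibodies to T cell, B cell, granulocyte, CD11b, CD11c and FcεRIα antigens, which sit on many of the cells known for Fc receptors. Library totals were 24796148 to 28782471 estimated counts.

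IgG Fc receptors come in 2 functional classes. Activating receptors have a ligand-binding alpha chain with a short tail and signal through the gamma chain (Fcer1g), a small dimer whose tails carry an ITAM, the tyrosine motif that recruits the kinase Syk. The inhibitory receptor (Fcgr2b) has an ITIM in its own tail and recruits the phosphatase SHIP-1, while the neonatal receptor (Fcgrt) pairs with beta-2 microglobulin inside the cell and returns IgG and albumin to the surface. In the lung they are best known from macrophages, monocytes, neutrophils, dendritic cells, mast cells and B cells.

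Icam1, the gene named by the genotype, was examined first. Its estimated counts were 2579 and 2630 in the WT libraries and 2812 and 3453 in the other pair, so the RNA level gave no sign of the deletion (log2 fold change 0.33 ± 0.11 SE, adjusted p = 0.0745 by edgeR's quasi-likelihood test). Gene-level counts do not show which exons the reads came from, so these values neither check the labels nor overturn them, and every direction below is one between WT and KO-labelled libraries.

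Fcgr3 and Fcgr2b, the activating and the inhibitory low-affinity receptor, share so much sequence that their reads could not be fully separated. Of the 755 windows of 50 bases in the Fcgr3 coding sequence (804 bases), 166 also occurred in Fcgr2b, or 22.0%, which was 17.0% of the 974 windows of Fcgr2b (1023 bases). No other pair among the 6 genes shared a window of that length. The longest identical run had 129 bases. On mm10 it lies at chr1:171054167-171057792 in Fcgr3 and at chr1:170966674-170968081 in Fcgr2b, both on the minus strand and both interrupted by introns. It is shown because a read that falls inside it fits both genes:
Shared coding run of Fcgr3 and Fcgr2b: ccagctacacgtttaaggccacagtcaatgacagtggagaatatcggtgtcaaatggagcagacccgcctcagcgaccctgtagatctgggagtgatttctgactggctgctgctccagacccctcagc

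Promoter windows are shown for the 3 activating alpha chain genes, whose windows held the motif marked below. The 2 groups of libraries did not overlap for these genes, but the same was true of Fcgr2b, Fcer1g and Fcgrt. The choice of windows therefore does not tie the motif to the difference between the groups. These windows are RefSeq sequences on GRCm38.p6 from 250 bases before to 50 bases after the transcript start. The capitals mark AGAGGAAG, a core bound by PU.1-type ETS factors, or its reverse complement CTTCCTCT, searched on both strands and chosen after the sequences had been read. The windows are chr3:96293920-96294219 on the minus strand for Fcgr1, chr1:171059354-171059653 on the minus strand for Fcgr3 and chr1:171018676-171018975 on the plus strand for Fcgr4:
Fcgr1 promoter: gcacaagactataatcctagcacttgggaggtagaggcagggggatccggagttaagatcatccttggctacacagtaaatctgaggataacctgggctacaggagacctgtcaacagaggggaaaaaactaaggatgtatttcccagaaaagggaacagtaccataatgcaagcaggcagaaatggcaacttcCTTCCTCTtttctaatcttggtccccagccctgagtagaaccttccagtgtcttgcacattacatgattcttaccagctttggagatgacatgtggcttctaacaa
Fcgr3 promoter: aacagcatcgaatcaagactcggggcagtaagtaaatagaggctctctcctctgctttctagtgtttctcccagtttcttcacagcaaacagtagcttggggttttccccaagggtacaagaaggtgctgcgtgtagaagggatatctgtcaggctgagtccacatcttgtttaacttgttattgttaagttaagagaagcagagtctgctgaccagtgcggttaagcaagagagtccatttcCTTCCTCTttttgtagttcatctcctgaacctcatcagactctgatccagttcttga
Fcgr4 promoter: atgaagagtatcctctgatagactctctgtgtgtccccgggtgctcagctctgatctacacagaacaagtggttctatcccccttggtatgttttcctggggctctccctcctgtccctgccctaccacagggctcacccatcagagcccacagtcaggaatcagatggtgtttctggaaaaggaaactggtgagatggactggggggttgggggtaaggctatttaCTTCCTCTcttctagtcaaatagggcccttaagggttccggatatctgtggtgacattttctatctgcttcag

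Each of the 3 windows held the motif once, in the CTTCCTCT orientation, beginning 56 bases before the start for Fcgr1, 7 bases before it for Fcgr3 and 23 bases before it for Fcgr4. Another Fcgr3 window, chr1:171059345-171059644, is not shown and held the same motif 16 bases before its own start. The windows of Fcgr2b, Fcer1g and Fcgrt did not hold these letters. Across all 32851 promoter windows, 4.55% held the motif. The match describes the sequence and was not related to any level.

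All 6 genes had both KO-labelled libraries above both WT libraries in normalized count, the authors' upper quartile scaled value. The same held for 29.6% of the 18324 genes of the normalized table and 28.3% of the genes past the low-count limits, and since the genes were listed with this contrast known, nothing is read from their number. Summed over the 6 genes, the normalized count was 81.0 and 84.8 in WT and 142 and 144 in the KO-labelled libraries, with no overlap. In bulk RNA, a change in the number of cells of a type cannot be told apart from a change in RNA per cell.

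**Figure D1:**
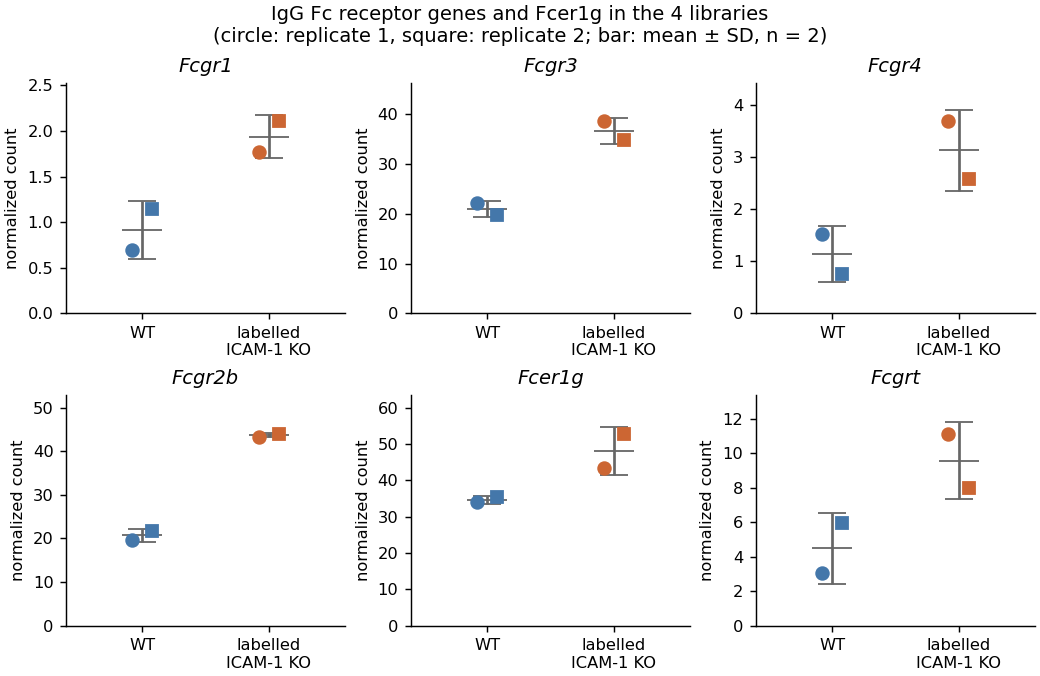
Normalized count (vertical axes, each from 0) of the 6 genes in the WT libraries and the KO-labelled libraries; circles are replicate 1, squares replicate 2, and bars the mean ± SD of 2 libraries. In each panel both KO-labelled points lie above both WT points, by the widest margin relative to the spread for Fcgr2b (19.7 and 21.7 against 43.3 and 44.1) and by a narrow one for Fcgrt (3.04 and 5.95 against 11.1 and 8.0).

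Fcgr3 encodes CD16, the low-affinity activating receptor (chr1:171051174-171064935, minus strand). It was by far the most abundant of the activating alpha chains. Its normalized counts were 22.1 and 19.8 in WT and 38.5 and 34.7 in the KO-labelled libraries, or 20.96 ± 1.59 and 36.6 ± 2.65 (mean ± SD, n = 2 each). The groups did not overlap, and the difference was several times the spread within either group. The log2 fold change was 0.83 ± 0.16 (SE), a 1.78-fold higher level.

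Fcgr4, an activating receptor known from monocytes, macrophages and neutrophils, lies next to Fcgr3 (chr1:171018920-171029761, plus strand). It rested on few counts, 45 and 23 in WT and 105 and 80 in the KO-labelled libraries. These correspond to normalized counts of 1.14 ± 0.54 and 3.13 ± 0.78 (mean ± SD, n = 2 each). The log2 fold change was 1.46 ± 0.51 (SE), the highest value of the 6 genes, but with an SE that covers the values of 3 of the other 5. Without WT replicate 1 it was 2.06 ± 0.69 (SE).

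Fcgr1 encodes CD64, the high-affinity receptor typical of macrophages and monocytes (chr3:96282909-96293969, minus strand), and was the lowest of the 6 genes. Its counts were 20 and 35 in WT and 50 and 65 in the KO-labelled libraries. The normalized counts were 0.92 ± 0.32 and 1.94 ± 0.24 (mean ± SD, n = 2 each), and the log2 fold change was 1.08 ± 0.52 (SE). Fcgr1 and Fcgr4 fell below the low-count limits of the main fit (a mean normalized count of 1 and a sum of 10 over the 4 libraries), so their fold changes come from the fit over all 22158 genes with a count.

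Fcgr2b, which encodes the inhibitory receptor CD32b (chr1:170958617-170976547, minus strand), showed the tightest values. Its normalized counts were 19.7 and 21.7 in WT and 43.3 and 44.1 in the KO-labelled libraries (means 20.7 ± 1.44 and 43.7 ± 0.51, SD, n = 2 each). The difference was far larger than the spread between libraries, with a log2 fold change of 1.11 ± 0.15 (SE), or 2.15-fold. An antisense gene that overlaps it, Gm38204, had 0 to 2 counts per library.

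The estimated counts of Fcgr2b and Fcgr3 were fractional, yet their sums were whole to within 0.01 in every library, which is what reads split between these 2 genes give. The summed counts were 1263 and 1310 (WT) and 2356 and 2472 (KO-labelled). Fitted as 1 gene, an alternative chosen after the data were seen, the pair had a log2 fold change of 0.97 ± 0.11 (SE), between the values of its members. Fcgr2b made up 47.1% and 52.3% of the summed count in WT and 53.0% and 55.9% in the KO-labelled libraries. The highest WT share and the lowest KO-labelled share, 52.3% and 53.0%, lay closer together than the replicates of either group, and how reads were divided was not tested.

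The activating alpha chains Fcgr1, Fcgr3 and Fcgr4 together stood to Fcgr2b in a ratio of counts of 1.23 and 1.00 in WT and 1.01 and 0.89 in the KO-labelled libraries. These groups overlapped, so no difference in the balance of activating and inhibitory receptor RNA was seen beyond the spread of 2 libraries each.

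Fcer1g, the gamma chain (chr1:171229572-171234365, minus strand), was the most abundant of the 6 genes and differed least. Its normalized counts were 33.9 and 35.4 in WT and 43.5 and 52.9 in the KO-labelled libraries (34.7 ± 1.06 and 48.2 ± 6.64, SD, n = 2 each). The latter pair spread more widely than the WT pair, and the lower of them stood above both WT values. The log2 fold change was 0.50 ± 0.15 (SE), or 1.42-fold, and 0.34 ± 0.20 (SE) without ICAM-1 KO replicate 2.

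Of the summed normalized count of the 6 genes, Fcer1g took 41.9% and 41.8% in WT and 30.7% and 36.6% in the KO-labelled libraries. These shares did not overlap, but the sum includes Fcgr2b and Fcgrt, which do not signal through the gamma chain. Per kb of principal transcript, the summed activating alpha chains reached 0.35 and 0.30 of the Fcer1g level in WT and 0.50 and 0.36 in the KO-labelled libraries. The gamma chain RNA thus stood above the summed alpha chains in all 4 libraries, as a level per length. The gamma chain works as a dimer, so these ratios do not show an excess over what the receptors take up. The sum also rests on Fcgr3, whose reads could not be fully separated from those of Fcgr2b.

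Fcgrt, the heavy chain of the neonatal receptor FcRn, lies apart from the others (chr7:45092990-45103851, minus strand). Its normalized counts were 3.04 and 5.95 in WT and 11.1 and 8.0 in the KO-labelled libraries (4.50 ± 2.06 and 9.57 ± 2.22, SD, n = 2 each). The groups did not overlap, but the replicates of either group differed by more than the gap between the groups, which ran from 5.95 to 8.0. The log2 fold change was 1.11 ± 0.37 (SE), and it was 1.69 ± 0.43 (SE) without WT replicate 2. B2m, the light chain that FcRn needs, went the other way in level, at 2654 and 2951 normalized counts in WT and 2109 and 2466 in the KO-labelled libraries. Its log2 fold change of -0.27 ± 0.11 (SE) did not pass the test (adjusted p = 0.131 by edgeR), while it passed with DESeq2 (adjusted p = 0.0298).

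The order of the genes as levels per kb depends on the transcript length used. With the union of annotated exons, the WT means in normalized count per kb were 39.7 ± 1.21 for Fcer1g, 12.1 ± 0.92 for Fcgr3, 3.57 ± 0.25 for Fcgr2b, 2.14 ± 0.98 for Fcgrt, 0.91 ± 0.43 for Fcgr4 and 0.35 ± 0.12 for Fcgr1 (SD, n = 2). In this order the neighbours Fcgr2b and Fcgrt, Fcgrt and Fcgr4, and Fcgr4 and Fcgr1 each differed by less than 2 SD of the more variable gene of the pair. Fcer1g and Fcgr3 stood clear of the rest. Fcgr2b has principal transcripts of 3544 and 1578 bases against 1347 for Fcgr3. With the shorter one its WT level was 13.1 ± 0.91 against 15.6 ± 1.18 for Fcgr3, and in the KO-labelled libraries it was 27.7 ± 0.33 against 27.2 ± 1.97. On that scale the 2 receptors could not be ordered beyond their spread, and the data do not show which transcript the reads came from.

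**Figure D2:**
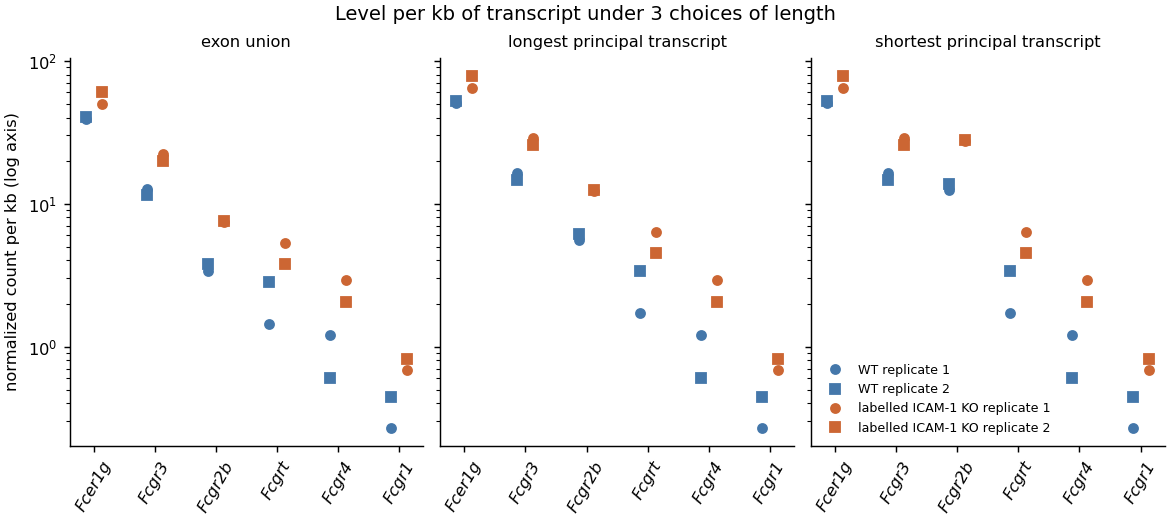
Normalized count per kb (log axis) of the 6 genes in the 4 libraries with the length taken as the union of exons, the longest or the shortest principal transcript. Fcer1g stands highest in each panel, and the place of Fcgr2b moves from 3.57 to 13.1 per kb in WT between the left and right panels, from well below Fcgr3 to beside it.

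The genes whose pattern over the 4 libraries was most like that of each tested gene were found by the root mean square distance of log2 normalized counts, each centred on its own mean. For Fcgr2b they were Pecam1 (distance 0.027), Zbtb46 (0.032) and Mylk (0.038). Pecam1 marks endothelium and many leukocytes, and Zbtb46 is a transcription factor of classical dendritic cells and endothelium. For Fcgr3 they were Sfi1 (0.020), Marcks (0.021) and Pglyrp1 (0.032), a granule protein of neutrophils. For Fcer1g they were Tbxas1 (0.023), the thromboxane synthase of myeloid cells and platelets, Kcnmb1 (0.023) and Tmbim1 (0.024). For Fcgrt they were Gm37494 (0.046), Dnah8 (0.048) and Fpgt (0.079). Fcgr1 and Fcgr4 were below the low-count limits and were not compared. None of these 4 was among the nearest 3 of another, and the closest pair among them, Fcgr2b and Fcgr3, stood 0.18 apart. With 4 libraries many genes share a pattern, so these distances are descriptions.

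The other Fc receptors, a list fixed with earlier results known, were tested in the fit across all 11711 genes past the low-count limits. None of the 9 tested receptor genes, nor B2m, passed an adjusted p of 0.05 (edgeR's quasi-likelihood test). Of these 10, 3 had an unadjusted p under 0.05, DESeq2 passed 1 (B2m) and limma passed 0. Among all genes tested, 13.8% passed in either direction, 8.80% as higher and 4.97% as lower, and 5.47% also differed at least 2-fold, 4.94% as higher. The median log2 fold change of the 10 was 0.48 against 0.01 over all genes tested.

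Fcer1a and Ms4a2, the alpha and beta chains that form the high-affinity IgE receptor with Fcer1g, were both detected. Fcer1a had normalized counts of 23.6 and 18.0 in WT and 19.3 and 30.7 in the KO-labelled libraries, and Ms4a2 had 8.48 and 7.22 against 9.40 and 12.1. Their log2 fold changes were 0.30 ± 0.25 and 0.49 ± 0.27 (SE), with adjusted p-values of 0.457 and 0.265 by edgeR. The Fcer1a values overlapped between the genotypes. FcεRIα was in the lineage cocktail, so its RNA was detected in libraries of a sort gated as negative for the protein. Bulk libraries do not show which cells held this RNA, and mast cell and basophil markers were also abundant in them. The source of the Fcer1a RNA was not tested.

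Fcmr, the IgM receptor of B cells, and Trim21, the cytosolic antibody receptor, had log2 fold changes of 0.62 ± 0.26 and 0.78 ± 0.29 (SE) and adjusted p-values of 0.145 and 0.101 (edgeR). The Fc receptor-like genes Fcrl1 (0.91), Fcrl5 (0.47), Fcrls (1.22) and Fcrla (0.38), mostly known from B cells, did not pass either, and Fcrls was raised in 1 library only (6.72 normalized counts in ICAM-1 KO replicate 2 against 1.65 to 2.44 elsewhere), without which its log2 fold change was 0.25. Fcrl1 had 3.53 and 0.89 normalized counts in WT, and its log2 fold change was 2.24 without WT replicate 1 and 0.21 without WT replicate 2. Pigr, the polymeric immunoglobulin receptor of epithelium, had 0.49 normalized counts in ICAM-1 KO replicate 1 and 3.37 to 4.30 in the others. Fcer2a (29 to 33 counts), Fcrl6 (0 to 11) and Fcrlb (1 to 68) fell below the low-count limits, and Fcamr had no count. Fcrlb, with 1 and 7 counts in WT and 32 and 68 in the KO-labelled libraries, passed when genes were kept by filterByExpr (adjusted p = 0.0439, edgeR). With so few counts in WT, it was the KO-labelled libraries that brought it past that filter, so this call is not independent of the filter.

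Receptors that borrow the gamma chain rose in part. Of the 3 that were tested, 2 rose, where 8.80% of all genes tested rose. Clec4e (Mincle, a receptor for mycobacterial and self glycolipids) had 5.35 and 5.41 normalized counts in WT and 13.8 and 12.8 in the KO-labelled libraries, with a log2 fold change of 1.34 ± 0.26 (SE, adjusted p = 0.0131, edgeR). Cd300ld, an activating receptor of myeloid cells, had 5.42 and 2.46 against 8.99 and 10.4 (log2 fold change 1.34 ± 0.37 SE, adjusted p = 0.0456), a call that was lost when genes were kept by filterByExpr (adjusted p = 0.0672). Its log2 fold change was 2.01 without WT replicate 1, and 0.87 without WT replicate 2, where it did not pass (adjusted p = 0.183), nor did it without ICAM-1 KO replicate 2 (adjusted p = 0.0967). Clec4n (Dectin-2, a receptor for fungal mannans) had 5.12 and 4.50 against 4.69 and 8.60 and did not pass (adjusted p = 0.40). The other 4 measured genes were below the limits. Clec4d had 25 and 30 counts against 84 and 131, Cd300c2 had 28.2 and 32.2 against 90.4 and 147, Ncr1 had 87 and 37 against 57 and 40, and Oscar had 26 and 2 against 0 and 0.

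Of 8 other chains that carry an ITAM or a comparable signal motif, 4 rose and none fell, against 8.80% and 4.97% of all genes tested. Cd3d rose most (19.1 and 37.7 normalized counts in WT against 71.3 and 85.9, log2 fold change 1.49 ± 0.25 SE, adjusted p = 0.00796, edgeR). The CD3 chains Cd3g and Cd3e, named here outside the naming rule, did not rise with it. Cd3g had 114 and 127 normalized counts in WT against 81.1 and 107 (log2 fold change -0.33 ± 0.14 SE, adjusted p = 0.158). Cd3e had a log2 fold change of 0.17 ± 0.24 (SE, adjusted p = 0.690). The B cell receptor chains Cd79a and Cd79b rose by log2 fold changes of 0.63 ± 0.13 and 0.66 ± 0.12 (SE). Tyrobp (DAP12), the adaptor of myeloid and NK cell receptors and the closest counterpart of Fcer1g, is named after its values were seen. It had 30.1 and 26.8 normalized counts in WT and 39.6 and 44.2 in the KO-labelled libraries, and a log2 fold change of 0.59 ± 0.15 (SE, adjusted p = 0.0344), beside the 0.50 of Fcer1g. This call was lost with filterByExpr (adjusted p = 0.0523), without a low-count filter (0.11) and without either WT library or ICAM-1 KO replicate 2 (0.0714 to 0.148). Hcst (DAP10), the most abundant of these per kb, had a log2 fold change of -0.07 ± 0.16 (SE). Over these 11 partners and adaptors the median log2 fold change was 0.63.

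**Figure D3:**
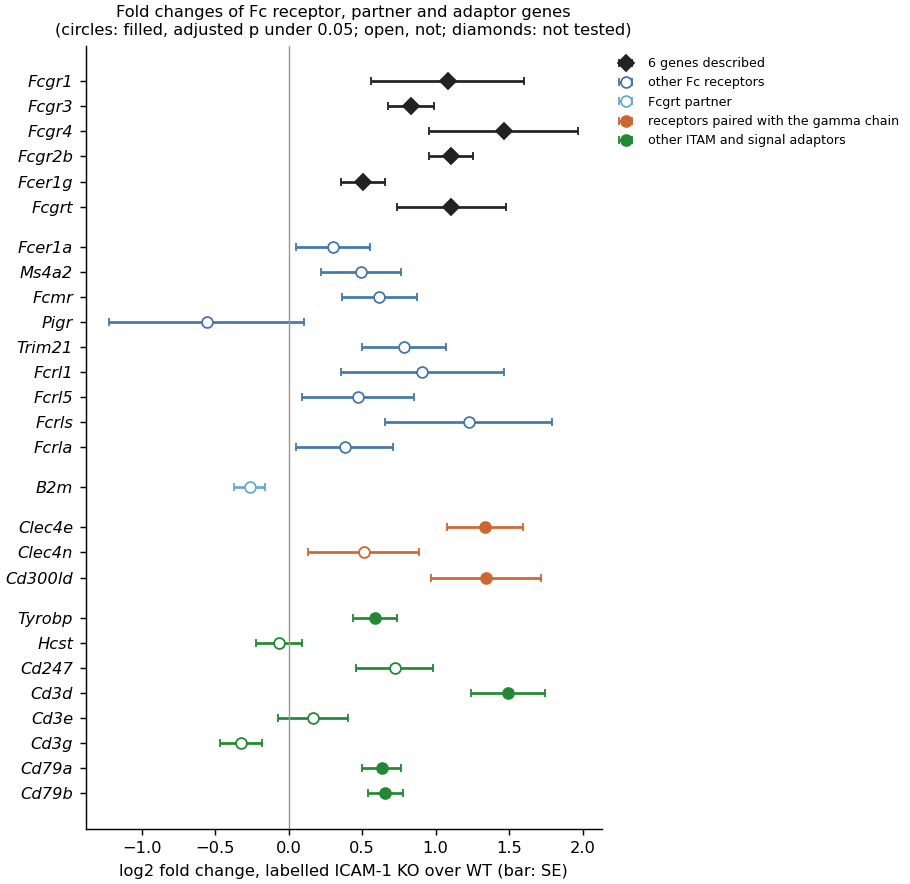
Log2 fold change, KO-labelled libraries over WT, with its SE (bars), for the 6 genes (diamonds, not tested), the other Fc receptors, B2m, the receptors paired with the gamma chain and the other adaptors (circles, filled where the adjusted p was under 0.05). The diamonds span 0.50 to 1.46, no circle among the other Fc receptors is filled, and 6 circles among partners and adaptors are filled, each to the right of 0.

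Downstream of the activating receptors, 9 of 29 tested signalling genes rose and none fell, where 8.80% of all genes tested rose. Syk, the kinase that docks on the gamma chain ITAM, had 17.1 and 27.6 normalized counts in WT and 63.6 and 61.0 in the KO-labelled libraries (log2 fold change 1.502 ± 0.20 SE, adjusted p = 0.00274, edgeR). Blnk, the adaptor of Syk best known from B cells, rose by 1.59 ± 0.22 (SE) on the log2 scale. Rac2, the most abundant of the list per kb, did not pass (normalized counts of 999 and 922 in WT and 897 and 985 in the KO-labelled libraries, adjusted p = 0.993). The median over the 29 was 0.28. Without a low-count filter, 4 of the 42 activating and inhibitory signalling genes passed, against 11 of 41 with it.

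Downstream of the inhibitory receptor, 2 of 12 tested genes rose and none fell, beside the same 8.80% and 4.97% over all genes tested. They were Ubash3b, a phosphatase that acts on Syk family kinases (log2 fold change 0.58 ± 0.14 SE, adjusted p = 0.028, edgeR), and the ubiquitin ligase Cblb (0.46 ± 0.13 SE, adjusted p = 0.0488). Neither passed when genes were kept by filterByExpr (adjusted p = 0.0512 and 0.0784). Inpp5d (SHIP-1), the phosphatase that docks on the Fcgr2b ITIM, is named here for that role outside the naming rule. Its normalized counts were 188 and 177 in WT and 188 and 167 in the KO-labelled libraries (log2 fold change -0.01 ± 0.09 SE, adjusted p = 0.95), and the groups overlapped. Dok2, the most abundant of the list per kb, had a log2 fold change of 0.25 ± 0.10 (SE, adjusted p = 0.12).

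Fcgr2b, Fcgr4, Fcgr3 and Fcer1g lie within 276 kb of chromosome 1, so the genes around them were examined as a background of position. Of 48 genes within 500 kb of any of the 4, 24 were tested, of which 4 rose and 3 fell, where 8.80% of all genes tested rose and 4.97% fell. The 3 that fell lay near Fcer1g or beyond it. They were Ppox, an enzyme of haem synthesis (log2 fold change -0.88 ± 0.18 SE, adjusted p = 0.0164, edgeR), Tomm40l, a mitochondrial import protein (-0.54 ± 0.14 SE) and Pfdn2, a chaperone subunit (-0.53 ± 0.13 SE). The median over the 24 was 0.23. Counted from the lower end of Fcgr2b, the 3 that fell lay at 257 to 387 kb and the 4 that rose at 430 to 674 kb.

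Of the 4 neighbours that rose, Slamf7, a receptor of NK and plasma cells, had 3.26 and 5.54 normalized counts in WT and 8.15 and 13.3 in the KO-labelled libraries (adjusted p = 0.0486, edgeR, and 0.07 when genes were kept by filterByExpr). Itln1, a lectin of mucosal epithelium, had 14 and 4 counts in WT and 416 and 2688 in the KO-labelled libraries (log2 fold change 7.45, adjusted p = 0.00649). Its log2 fold change ran from 5.63 without ICAM-1 KO replicate 2 to 8.62 without WT replicate 1, and it did not pass without WT replicate 2 (adjusted p = 0.0541) or without a low-count filter (0.06). Gm9765, beside it, had 0 counts in both WT libraries and 50.4 and 292 in the others, at least 56.9-fold higher against a floor of 3 counts per library (adjusted p = 0.0283). Taken alone, ICAM-1 KO replicate 1 gave at least 18.0-fold and replicate 2 at least 95.8-fold, and the call was lost with filterByExpr (adjusted p = 0.0506) and without either WT library. Itln1 (0.50 and 0.16 normalized counts in WT) and Gm9765 (0.03 in both WT libraries) met the low-count limits only through the KO-labelled libraries. Their calls as higher are therefore not independent of those limits. Arhgap30, named after its values were seen, had a log2 fold change of 0.67 ± 0.10 (SE, adjusted p = 0.00459). Cd48, the most abundant neighbour per kb, missed the threshold (0.35 ± 0.10 SE, adjusted p = 0.0501), though it passed with TMM factors (0.0475), with DESeq2 (0.0219) and with the replicate block (0.0479).

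**Figure D4:**
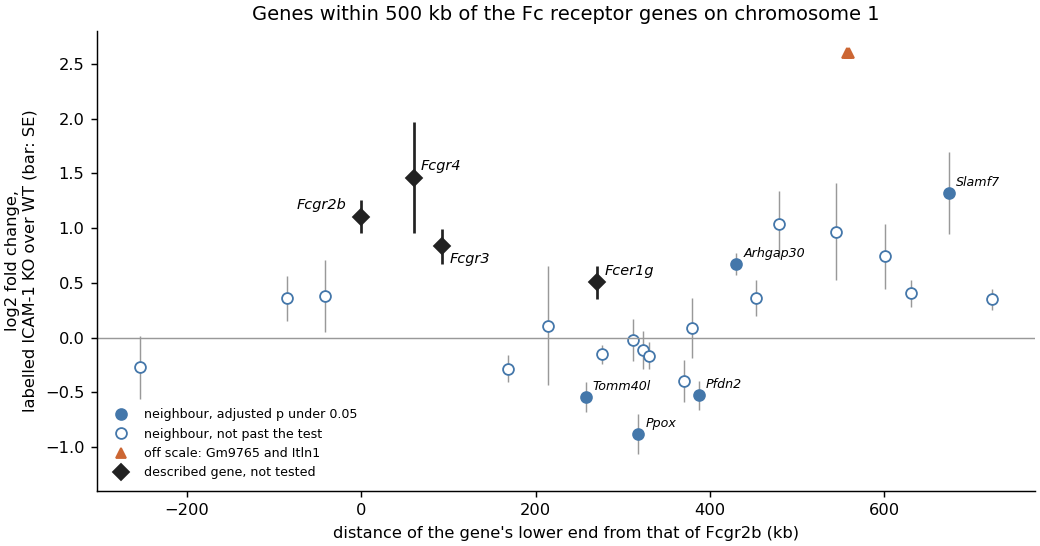
Log2 fold change, KO-labelled libraries over WT (bars: SE), of the tested genes within 500 kb of the Fc receptor genes on chromosome 1, against the distance in kb of each gene's lower end from that of Fcgr2b; diamonds are Fcgr2b, Fcgr4, Fcgr3 and Fcer1g, and filled circles passed the test. The diamonds lie between 0.50 and 1.46, while genes close to Fcer1g such as Ppox (-0.88) lie below 0.

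Several marker lists of other cell types had higher sums in the KO-labelled libraries, while the eosinophil list was lower and the NK cell sums overlapped. Each count of markers stands beside 8.80% of all genes tested that rose and 4.97% that fell. ILC2 genes had the highest sum in every library, with a summed normalized count over 11 markers of 5991 and 6302 in WT and 5345 and 5436 in the KO-labelled libraries, of which 1 rose and 2 fell. The most abundant were Arg1, Areg and Il1rl1 (ST2). Of 11 macrophage markers 9 rose and none fell, with sums of 246 to 253 in WT and 507 to 771 in the KO-labelled libraries. Lyz2 (169 and 172 against 344 and 577 normalized counts), Csf1r (27.1 and 22.0 against 47.6 and 58.2) and C1qb (17.3 and 13.9 against 26.2 and 26.4) were the most abundant of them. For comparison, Fcgr3 had 22.1 and 19.8 against 38.5 and 34.7. No macrophage marker was at 0 in any library. In WT, Mertk had 0.17 and 0.63 normalized counts, Marco 0.53 and 1.42 and Mpeg1 2.28 and 1.65. They met the low-count limits only through the KO-labelled libraries, so their calls as higher are not independent of those limits.

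The other lists of cells that carry IgG Fc receptors moved likewise in part. Monocyte markers (Ccr2, Fn1 and Ly6c2 the most abundant) rose in 2 of 6, with sums of 329 to 332 in WT and 456 to 544 in the KO-labelled libraries. Of those named, Fn1 passed, while Ccr2 and Ly6c2 did not (adjusted p = 0.0563 and 0.0714, edgeR). Neutrophil markers (S100a9, S100a8, Csf3r) rose in 3 of 5 tested, from 70.3 to 75.7 against 122 to 169. Ly6g, a defining neutrophil marker, had 0 to 14 counts per library and was at 0 in WT replicate 1. Dendritic cell markers (Zbtb46, Xcr1 and Itgax the most abundant) rose in 3 of 4 tested, from 33.3 to 34.9 against 60.1 to 70.3. The 3 were Zbtb46, Itgax and Cd209a, while Xcr1 did not pass (log2 fold change 0.20, adjusted p = 0.72, edgeR). At its WT level (1.91 and 2.22 normalized counts), Cd209a would not have met the low-count limits, so its call is not independent of them. B cell markers (Jchain and Ms4a1 among the most abundant) rose in 2 of 5 tested, from 153 to 304 against 441 to 577. Ms4a1 passed, while Jchain did not (adjusted p = 0.0877, edgeR).

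Mast cell and basophil markers were the most abundant of the other lists, led by Cma1, Cpa3 and Tpsb2, with sums of 1227 to 1494 in WT and 1660 to 2096 in the KO-labelled libraries, and 2 of 7 rose. Cma1 and Tpsb2 passed, while Cpa3 did not (adjusted p = 0.0845, edgeR). Eosinophil markers (Prg2, Epx, Ccr3) went both ways, 2 higher and 2 lower of 4 tested, with sums of 68.2 to 95.2 in WT and 24.1 to 41.5 in the KO-labelled libraries. Epx, a defining eosinophil marker, had 1027 and 739 counts in WT and 0 in both KO-labelled libraries. In the KO-labelled libraries, Epx had 0.03 normalized counts in both and Prg2 had 1.18 and 3.79. At these levels the low-count limits would not have been met, nor by Il5ra at its WT level (1.85 and 2.28). The calls of Epx, Prg2 and Il5ra are therefore not independent of those limits. NK cell markers (Gzma, Klrb1c, Prf1) rose in 1 of 3 tested, with sums of 13.1 to 28.4 in WT and 28.1 to 37.4 in the KO-labelled libraries. Klrb1c passed, while Gzma and Prf1 did not (adjusted p = 0.863 and 0.485, edgeR).

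T cell, endothelial and epithelial lists moved too; some endothelium is known to express Fcgr2b and many epithelia Fcgrt. T cell markers (Trac, Cd6, Cd28) rose in 5 of 6, with sums of 175 to 233 in WT and 515 to 641 in the KO-labelled libraries. Endothelial markers (Pecam1, Vwf, Cldn5) rose in 6 of 6, from 113 to 116 against 282 to 296, and epithelial markers (Scgb1a1, Sftpc, Epcam) in 1 of 4 tested, from 164 to 382 against 401 to 1083. Among the epithelial genes, Sftpc passed, while Scgb1a1 and Epcam did not (adjusted p = 0.651 and 0.138, edgeR). The part of any of these cells in the levels or differences of the 6 genes was not tested.

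**Figure D5:**
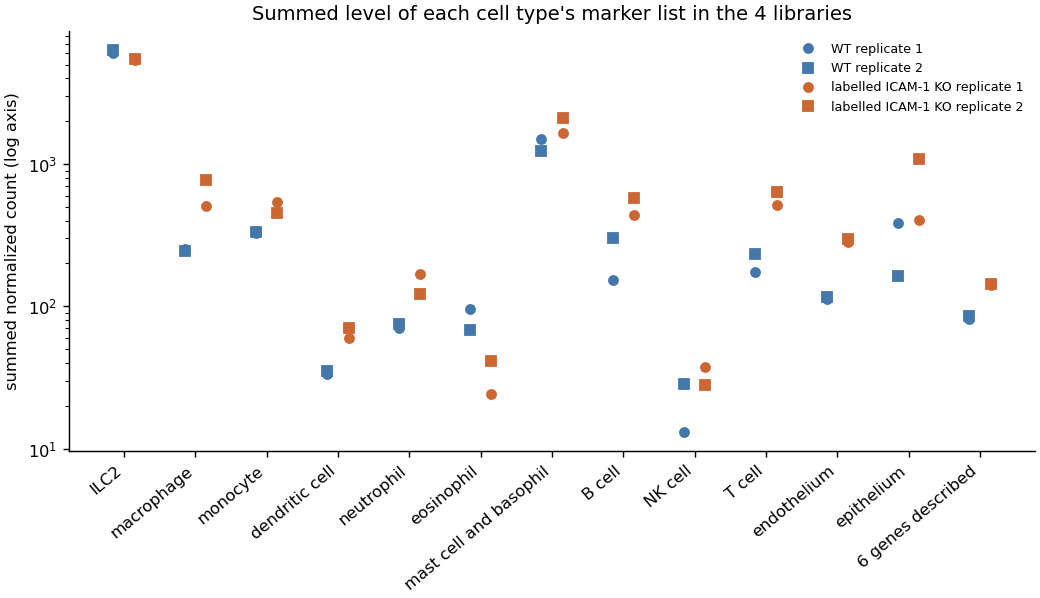
Summed normalized count (log axis) of 12 marker lists and of the 6 genes in the 4 libraries; blue is WT, orange is labelled ICAM-1 KO, circles are replicate 1 and squares replicate 2. The sum of the 6 genes (81.0 and 84.8 against 142 and 144) is higher in the KO-labelled libraries, as are the macrophage and endothelial lists, while the eosinophil list is lower.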

How the data were processed

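RNA of sorted activated lung ILC2s was measured in 4 libraries, with genotype and replicate number taken from the sample labels. Per the methods and the submitters' processing notes, the authors prepared cDNA from 10 ng of RNA, used STAR for alignment to mm10 and obtained expected counts by the E/M quantification of Partek. These deposited expected counts are not normalized and need not be whole, because a read that fits several genes is divided among them. A normalized signal was also deposited by the authors, in which 1 was added to each count and the result was multiplied by an upper quartile factor of the library.

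The 6 genes and all lists were chosen with earlier results of these data known. Counts were rounded to whole numbers and fitted by the quasi-likelihood method of edgeR 4.0.16 (legacy set to FALSE) under R 4.3.3. The fit used upper quartile factors, had no covariates and took 11711 genes, those whose normalized counts averaged 1 or more and summed to 10 or more. P-values were adjusted by the Benjamini-Hochberg method across them, with a threshold of 0.05. The fitting code was tested on simulated data. Each library is a pool, no source used here says that replicates were sorted independently, and p-values cover the spread between these samples, which may be technical. Reads carry no molecular identifiers, so a floor of 3 counts covers counting error only.

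The genes named were the 6, Icam1, each measured Fc receptor of the list, up to 3 passing genes per direction of each other list with its most abundant gene, the 3 most abundant genes of each marker list and the 3 genes most like each tested gene, plus genes that overlap the 6. Exceptions are stated where they occur. Of the genes this rule takes, 2 are not reported here. Coordinates and exon lengths come from the deposited tables and GENCODE, and all 6 genes matched a RefSeq promoter window. Overlapping small RNA and antisense genes other than Gm38204 were not analysed here. Alternatives were TMM factors, DESeq2 1.42.0, limma 3.58.1 on log2 of the normalized count plus 1, 3 other low-count filters, the older quasi-likelihood method, unrounded counts, a replicate block and leaving out each library.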

Additional observations from a re-analysis of the deposited data

How the results depend on the processing

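All 6 genes kept a positive log2 fold change under every alternative that gave a value. Fcgr1 had a log2 fold change of 0.62 with limma. Leaving out each library in turn gave ranges of 0.77 to 1.498 for Fcgr1, 0.76 to 0.91 for Fcgr3, 1.02 to 2.06 for Fcgr4, 1.04 to 1.18 for Fcgr2b, 0.34 to 0.65 for Fcer1g and 0.71 to 1.69 for Fcgrt. Fitted together, an alternative chosen after the data were seen, Fcgr2b and Fcgr3 had 0.97. The other low-count filters kept Fcgr1 and Fcgr4, at 1.08 to 1.13 and 1.46 to 1.51.

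The counts of passing genes moved more. Across all genes, 641 were called at 2-fold (578 higher, 63 lower), with 312 (273 and 39) without a low-count filter and 388 to 676 when a library was left out, the fewest without WT replicate 1. Without the filter, 1 partner or adaptor, 4 signalling genes and 1 neighbour passed. With filterByExpr 7 signalling genes passed, and with at least 10 counts in every library 4 neighbours did. Among the other Fc receptors and B2m, 1 passed with DESeq2, with filterByExpr and with the replicate block, and 0 to 2 passed when a library was left out (Fcrls without ICAM-1 KO replicate 1, B2m and Pigr without ICAM-1 KO replicate 2). Leaving out a library gave 3 to 5 partners and adaptors (3 without WT replicate 2), 5 to 8 signalling genes (5 without either WT library, 7 without ICAM-1 KO replicate 1) and 2 to 6 neighbours (2 without either WT library). Of 18 genes past the test taken by the naming rule or by name, 14 lost their call without the filter, 6 with filterByExpr, 10 without WT replicate 1 and 12 without WT replicate 2, and none changed sign under any alternative.

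Genes that had not passed changed sign in some of the fits that left out 1 library. Their log2 fold changes ranged from -0.090 (without ICAM-1 KO replicate 2) to 0.60 for Fcer1a, from -0.020 (without ICAM-1 KO replicate 2) to 0.88 for Clec4n, from -2.99 to 0.26 (without ICAM-1 KO replicate 1) for Pigr, from -0.029 (without ICAM-1 KO replicate 1) to 0.72 for Fcrla, from -0.29 to 0.12 (without ICAM-1 KO replicate 1) for Hcst, from -0.014 (without WT replicate 2) to 1.18 for Fcrl5, and from -0.082 to 0.074 for Rac2, which was above 0 without WT replicate 1 (0.06) or ICAM-1 KO replicate 1. For Inpp5d the range was -0.088 to 0.061, above 0 without WT replicate 1 (0.036) or ICAM-1 KO replicate 2. None passed with the changed sign, and the cause was not tested.

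The replicate numbers occur in both genotypes but do not mark a shared animal. Deviations of same-numbered libraries correlated at -0.07 across 11711 genes, so the numbers were not taken as a pairing. With the replicate block, against 641 without it, 668 genes were called at 2-fold, B2m (adjusted p = 0.0171) and Cd48 (0.0479) passed and Cblb did not (adjusted p = 0.0504).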
